A study of Mus musculus with 32 samples.

Results

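The 42 genes described here encode solute transporters and channels of the kidney proximal tubule and the 4 proteins of its receptor complex for filtered protein. They were chosen by name: each gene of the deposited count table whose identifier maps to a listed mouse symbol was taken, which gave 42 of the 53700 genes in the table. No measured value enters that rule, but the list of symbols was drawn up with earlier results of these data known. All 42 were found, and all 42 passed the filter on low counts, which left 13961 genes for testing.

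Whole kidneys of 32 male C57BL/6 mice of the iKspCre-Pkd1del line were compared by RNA-seq. In this line a tamoxifen-inducible Cre, driven by the kidney epithelial Ksp-cadherin promoter, removes floxed exons of Pkd1, the gene most often mutated in dominant polycystic kidney disease. The 12 PKD mice were dosed with tamoxifen at 150 mg/kg on days 18 and 19 after birth, stayed on plain chow and were killed at 95 days. The 12 PKD + Salsalate mice had the same genotype, tamoxifen and age, and ate chow with salsalate, a salicylate prodrug, at 2.5 g/kg for the final 2 weeks, from day 81. The 8 wildtype mice came from the same line, were never given tamoxifen and were 109 days old. Against wildtype, Pkd1 deletion, tamoxifen and age therefore cannot be told apart. The paper states that mice with a similarly mild cystic phenotype were picked for both PKD groups, to limit phenotypic bias. These kidneys therefore do not cover the whole range of the disease, and the PKD groups were matched on its severity.

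The proximal tubule takes back most of what the glomerulus filters. Sodium-coupled carriers in its brush border bring in glucose, amino acids, phosphate, sulfate and organic acids, carriers on the other face pass them to the blood, and the receptors megalin and cubilin capture filtered protein. Its cells are known to lose transporters when injured, and these genes are therefore widely read as a measure of how much working proximal tubule a kidney holds. In RNA from whole kidneys, fewer proximal tubule cells and less RNA per cell cannot be told apart.

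Reads counted on genes ran from 11193136 to 109807664 per kidney, with a median of 17242801, and the 42 genes together took 1.16% to 2.05% of them. Cdh16, whose promoter drives the Cre, had a median of 885 CPM (counts scaled to the same library total) in wildtype, 935 in PKD and 921 in PKD + Salsalate. Pkd1 itself was not lower in the deleted kidneys: its median was 66.4 CPM in wildtype, 92.2 in PKD and 91.6 in PKD + Salsalate, and the log2 fold change of PKD over wildtype was 0.42 (SE 0.11, adjusted p = 0.00134). Taken separately, wildtype replicates 1 to 5 gave 0.54 and replicates 6 to 8 gave 0.24 (adjusted p = 0.000317 and 0.197). Reads from the exons outside the deletion enter this count, so it does not check the deletion. One library per PKD group stood apart. PKD replicate 10 had a summed level of 5356 CPM over 12 liver genes, against 178 to 364 CPM in the other kidneys, and PKD + Salsalate replicate 11 had the highest level of the injury marker Havcr1 (143.8 CPM).

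Levels between genes were compared as RPKM, which is CPM per kilobase of exon. Slc34a1, the main sodium-phosphate cotransporter of the brush border, stood first, with a wildtype median of 943 RPKM and a range of 636 to 1319. Slc7a13, a cystine and acidic amino acid carrier of the late proximal tubule, followed at 396 RPKM (289 to 514), and Slc5a2, the glucose carrier SGLT2, at 224 RPKM (193 to 284). The ranges of these 3 genes did not overlap with one another over the 8 wildtype kidneys, whereas from Slc5a2 down each gene overlapped with the next. Aqp1, the water channel, had 208 RPKM, and its range of 167 to 439 overlapped with those of both Slc7a13 and Slc5a2. The order holds for all 8 wildtype kidneys pooled, which fall into sets described below. Slc7a13 had means of 954 CPM in the libraries with a name ending in R and 675 CPM in the others, and Aqp1 562 and 1144 CPM. Slc47a1, an exporter of organic cations, had 126 RPKM and Slc6a18, an amino acid carrier, 118. At the low end were Slc7a12, a relative of the amino acid exchangers, at 0.93 RPKM and Slc17a4, an organic anion transporter, at 0.71 RPKM.

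**Figure D1:**
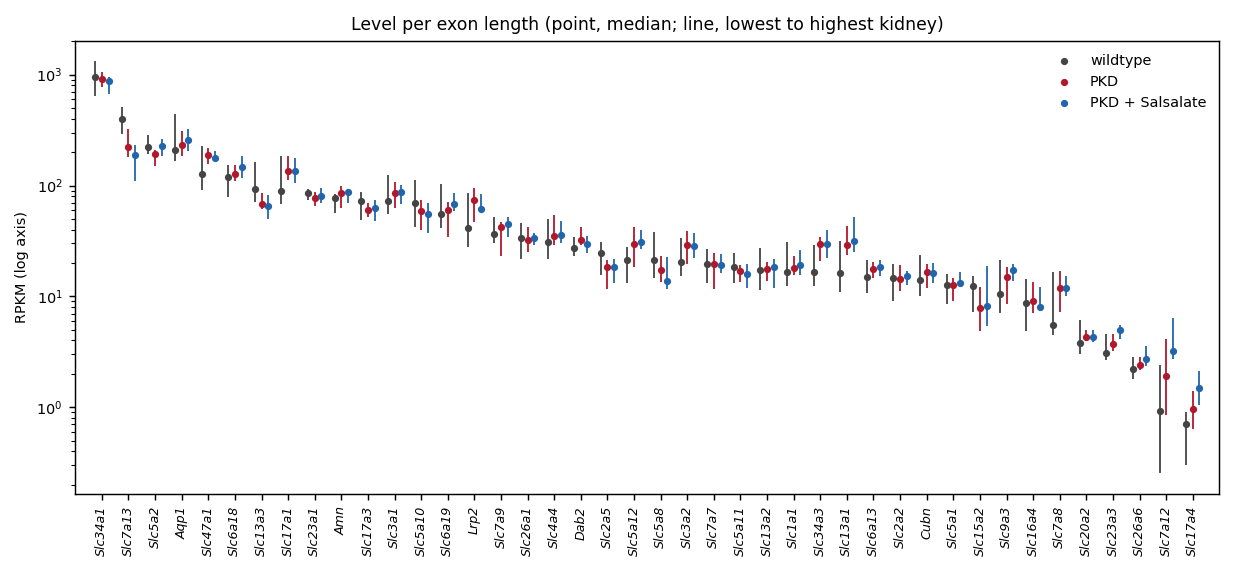
Level of each of the 42 genes as RPKM on a log axis, ordered by the wildtype median. Points are group medians and lines run from the lowest to the highest kidney (8 wildtype, 12 PKD, 12 PKD + Salsalate); the levels fall from 943 RPKM for Slc34a1 to 0.71 RPKM for Slc17a4.

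The wildtype kidneys fell into 2 sets that bear on each comparison with them. The names of 5 libraries, wildtype replicates 1 to 5, end in the letter R, while those of wildtype replicates 6 to 8 and of all 24 PKD kidneys do not. The labels do not say what the letter stands for. In the R libraries 73.6% to 76.4% of alignments fell on genes, against 80.9% to 83.1% in the other 3 wildtype libraries. The 42 genes took 1.16% to 1.38% of counts in the R libraries and 1.85% to 2.05% in the other 3.

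Of the 42 genes, 27 were lower in all 5 R libraries than in all 3 others and 0 were higher in all 5. Over all tested genes these shares were 21.4% lower and 22.4% higher. The median log2 ratio of the R libraries to the others was -0.59 for the 42 genes and 0.02 for all genes. Slc7a8, a neutral amino acid exchanger, showed the widest gap: it had 51.0, 41.3, 45.5, 50.6 and 42.3 CPM in the R libraries and 136.8, 153.0 and 136.0 CPM in the others. Slc7a13 ran the other way, with means of 954 CPM in the R libraries and 675 CPM in the others, and its values overlapped. Counts against wildtype are therefore given for all 8 kidneys and also for each set alone. No library of the PKD groups carries the R. In PKD + Salsalate against PKD no wildtype value is compared, although the wildtype kidneys take part in the filter, the scaling, the shared spread and the adjustment.

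**Figure D2:**
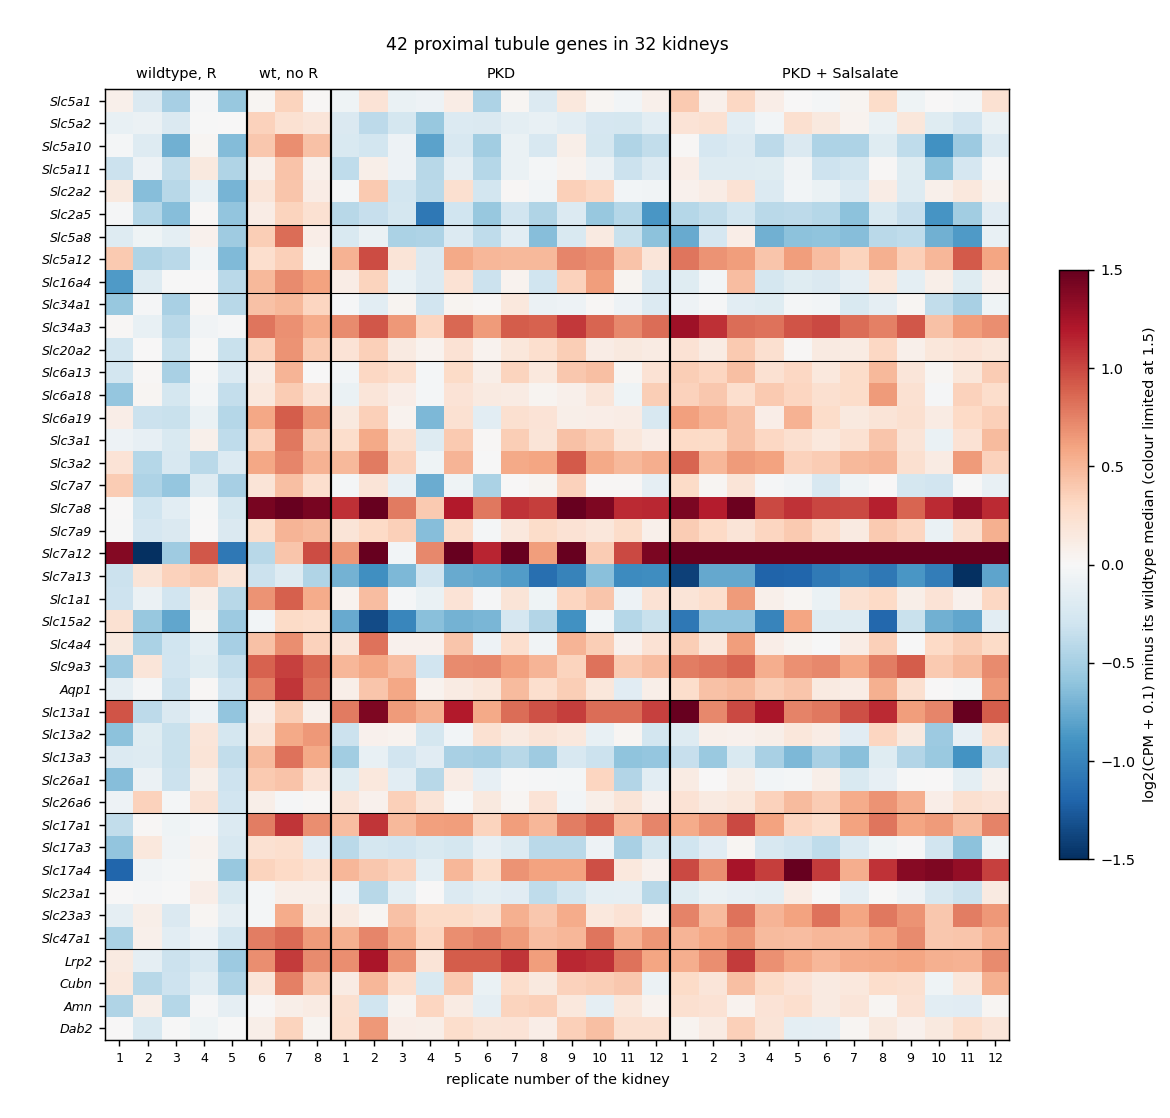
Heat map of the 42 genes (vertical, grouped by role) in the 32 kidneys (horizontal, by group and replicate number), coloured by log2(CPM + 0.1) minus the median of the 8 wildtype kidneys, with the colour limited at 1.5. The 3 wildtype kidneys without R are redder than the 5 with R for most genes, and Slc7a13 is blue and Slc13a1 red across the PKD kidneys.

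PKD against wildtype sets the cystic kidneys beside wildtype kidneys, which also differ from them in tamoxifen and age. Against all 8 wildtype kidneys, 20 of the 42 genes passed an adjusted p of 0.05, 9 lower and 11 higher. Of all genes tested, 49.1% passed, 25% lower and 24.1% higher, so the share among the 42 was close to the background. At an unadjusted p under 0.05 there were 23 of the 42 genes, against 55.3% of all genes. The median log2 fold change was 0.08 for the 42 genes and -0.01 for all genes. None of the 42 had all PKD kidneys below or all above the wildtype kidneys, as 2.07% and 5.21% of all genes had.

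The choice of wildtype set turned this count around. Against the 5 R libraries 2 of the 42 genes were lower and 27 higher, where 28.9% and 30.7% of all genes were. Against the 3 libraries without R, 21 were lower and 1 higher, where 19.9% and 20.9% of all genes were. The median log2 fold change of the 42 genes was 0.33 against the first set and -0.28 against the other. For 24 genes the sign differed between the sets, as it did for 41.5% of all genes. Of the 42, 8 genes were called in opposite directions: Slc34a1, Slc20a2, Slc6a19, Slc3a1, Slc1a1, Slc9a3, Slc16a4 and Aqp1.

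Against both sets alone, 2 genes were called lower, Slc7a13 and Slc23a1, and 1 was called higher, Slc13a1. Over all genes, 8.06% were lower and 11.5% higher against both. These 3 are the members called the same way whichever set of wildtype libraries was used, while Slc5a1 and Slc26a6 were called against neither set.

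**Figure D3:**
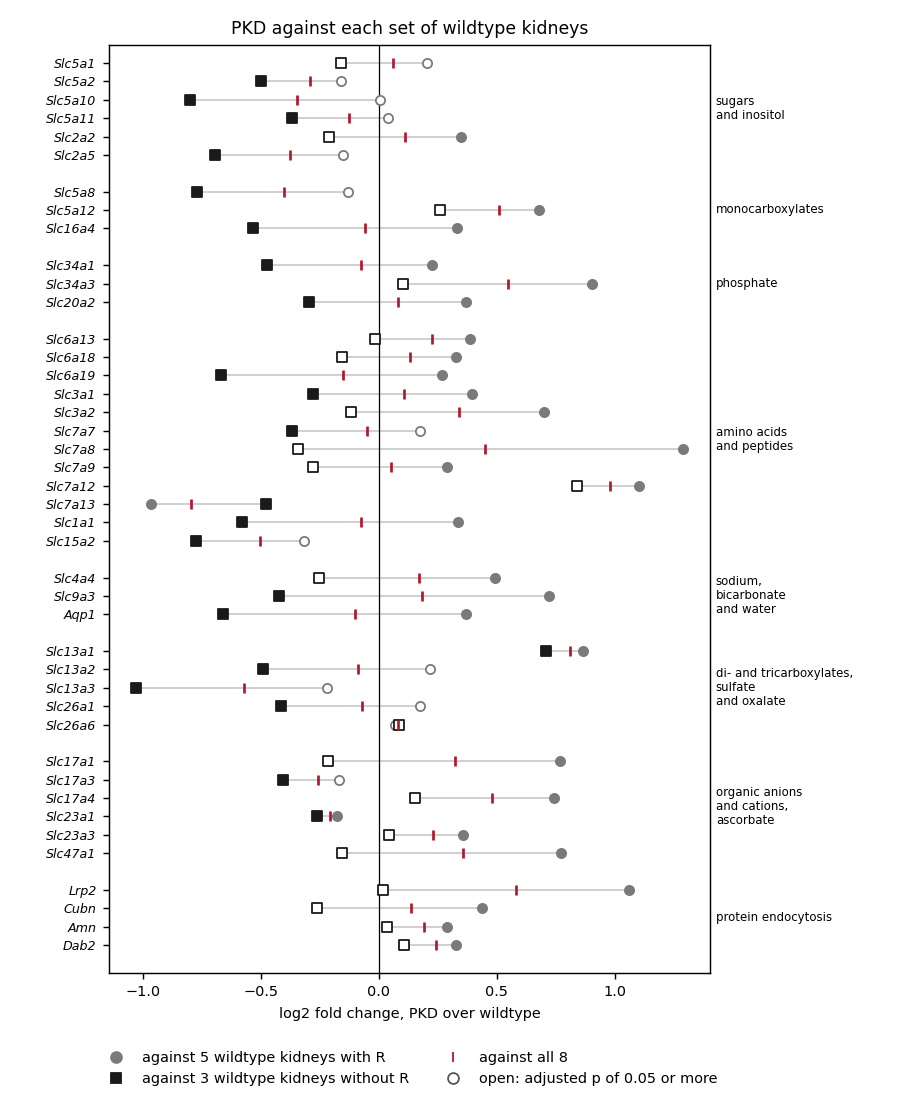
Log2 fold change of PKD over wildtype for each of the 42 genes, fitted against the 5 wildtype kidneys with R (circles), the 3 without R (squares) and all 8 (red bars), with open symbols for an adjusted p of 0.05 or more. Circles lie to the right of squares for each gene but Slc7a13 and Slc26a6, and both symbols are filled on the same side of 0 for Slc7a13, Slc23a1 and Slc13a1.

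Slc7a13 had 674.0, 963.8, 1069, 1101 and 961.2 CPM in the R libraries and 671.6, 736.5 and 617.8 CPM in the other wildtype kidneys. In PKD its lowest value was 383.5, its median 479.6 and its highest 687.3 CPM. All 12 PKD kidneys lay below the wildtype median, and the highest PKD kidney reached into the range of the lowest wildtype kidneys. The log2 fold change was -0.80 (SE 0.12, adjusted p = 2.03e-06), and it was -0.97 against the R libraries and -0.48 against the others (adjusted p = 1.44e-07 and 0.0118).

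Slc13a1 encodes the sodium-sulfate cotransporter that takes back filtered sulfate. It had 276.9, 109.4, 124.1, 136.2 and 95.6 CPM in the R libraries and 154.5, 186.5 and 152.3 CPM in the others. In PKD it ran from 207.8 through a median of 257.3 to 380.5 CPM. Every PKD kidney was above the other 7 wildtype kidneys, while wildtype replicate 1 lay within the PKD range. The difference was 0.81 on the log2 scale (SE 0.16, adjusted p = 9.29e-05), with 0.87 against the R libraries and 0.71 against the others.

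Slc23a1, the ascorbate transporter of the brush border, changed less. Its wildtype values were 307.1, 301.8, 302.9, 327.7 and 259.3 CPM with R and 299.6, 325.3 and 323.1 CPM without. In PKD the lowest was 229.2, the median 273.1 and the highest 307.4 CPM, which overlaps with wildtype. The log2 fold change was -0.21 (SE 0.06, adjusted p = 0.00627), with -0.18 and -0.26 against the 2 sets (adjusted p = 0.0337 and 0.0148).

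**Figure D4:**
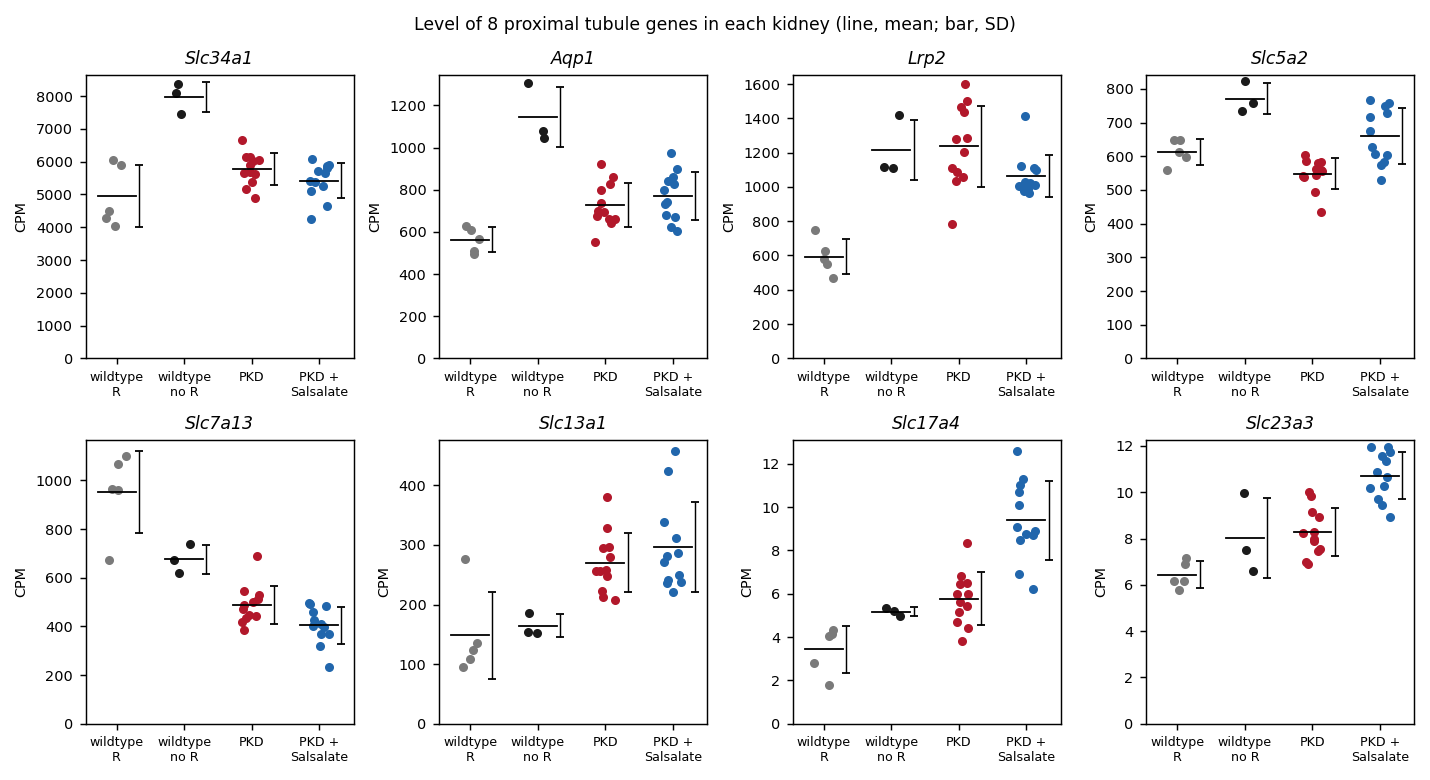
CPM of 8 genes in each kidney, with the wildtype kidneys split by library name; the horizontal line is the mean and the bar the SD. For Slc34a1 and Aqp1 the PKD kidneys lie below the wildtype kidneys without R and overlap with those with R. By mean, Slc7a13 is lower and Slc13a1 higher in PKD than in either of the 2 wildtype sets, and Slc17a4 and Slc23a3 are highest in PKD + Salsalate.

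Of the 6 sugar and inositol carriers, 0 were lower and 1 higher against the R libraries, and 4 lower and 0 higher against the others. Against all 8 wildtype kidneys 3 were lower and 0 higher: Slc2a5, the fructose carrier GLUT5, at -0.38, Slc5a10, a mannose and fructose carrier, at -0.35, and Slc5a2 at -0.29 on the log2 scale. Slc5a2 had 558 to 649 CPM in the R libraries, 733 to 823 CPM in the others, and 435.7, 557.7 and 602.4 CPM as lowest, median and highest in PKD. All PKD kidneys lay below the 3 wildtype kidneys without R, and they reached from within the range of the R libraries to below it. Its fold change was -0.50 against the libraries without R (adjusted p = 0.000112) and -0.16 against those with R (adjusted p = 0.0804). Slc5a10 gave 0.0058 and Slc2a5 gave -0.15 against the R libraries, neither of them called. Slc5a1 (SGLT1), Slc5a11, an inositol carrier, and Slc2a2 (GLUT2), the exit carrier for glucose, had fold changes of 0.06, -0.13 and 0.11 against all 8 and were not called there. Slc2a2 was called higher against the R libraries (0.35, adjusted p = 0.0164) and Slc5a11 lower against the others (-0.37, adjusted p = 0.00794).

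The 3 monocarboxylate carriers did not move together. Slc5a12, a low-affinity lactate carrier of the early tubule, was higher at 0.51 (adjusted p = 0.00132), while Slc5a8, the high-affinity carrier of the later tubule, was lower at -0.40 (adjusted p = 0.0124). Slc5a12 was called against the R libraries alone (0.68) and Slc5a8 against the libraries without R alone (-0.77). Slc16a4, an orphan monocarboxylate transporter, had -0.06 and was not called against all 8, but was 0.33 and -0.53 against the 2 sets, called both times.

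Among the phosphate carriers, Slc34a3, the second brush-border cotransporter, was higher. It had 39.3, 36.0, 29.3, 37.5 and 38.3 CPM in the R libraries, 67.9, 62.3 and 57.1 CPM in the others, and 48.7, 69.9 and 81.1 CPM as lowest, median and highest in PKD. PKD kidneys were above all R libraries and overlapped with the others. The log2 fold change was 0.55 (SE 0.12, adjusted p = 0.000425), and 0.10 against the libraries without R (adjusted p = 0.517). Slc34a1 had 4026 to 6043 CPM with R, 7462 to 8357 CPM without and 4900.4, 5782 and 6668 CPM in PKD. The PKD kidneys thus sat below the one set and mostly inside the other. Its fold change was -0.07 against all 8 (95% interval -0.29 to 0.14), 0.22 against the R libraries (adjusted p = 0.0360) and, in the opposite direction, -0.47 against the libraries without R (adjusted p = 9.96e-05). Slc20a2, a widely expressed phosphate carrier, had 0.08 and was not called against all 8, but was 0.37 and -0.30 against the 2 sets, called both times.

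The amino acid and peptide carriers form the largest group, with 12 members, of which 2 were lower and 3 higher against all 8 wildtype kidneys. Against the R libraries 1 was lower and 9 higher, and against the others 6 were lower and 0 higher. Besides Slc7a13, Slc15a2, the peptide carrier PEPT2, was lower at -0.50 (SE 0.19, adjusted p = 0.0242). It had 36.3, 58.5 and 89.8 CPM in PKD and 53.5, 92.2 and 112.6 CPM in wildtype as lowest, median and highest, with overlap, and it was called against the libraries without R alone (-0.78). Slc7a12 was the gene with the largest rise, at 0.98 (SE 0.32, adjusted p = 0.0112). Its wildtype values of 4.17, 0.44, 1.04, 3.05 and 0.68 CPM with R and 1.14, 2.09 and 3.16 CPM without R overlapped with those in PKD, which ran from 1.49 through 3.36 to 7.25 CPM. The SD of log2 CPM was 1.08 in wildtype and 0.67 in PKD. The wildtype values rest on 7 to 87 reads. Slc7a12 was called against the R libraries (1.10) and not against the others (0.84, adjusted p = 0.0830).

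Slc3a2, the heavy chain of several exchangers, at 0.34 and Slc6a13, a GABA and taurine carrier, at 0.22 were the other members called higher, and both gave values below 0 against the libraries without R (-0.12 and -0.019). Slc3a1 and Slc7a9, the chains of the cystine carrier that is defective in cystinuria, had 0.11 and 0.05. Slc6a19, the main neutral amino acid carrier, had -0.15, Slc6a18 0.13, Slc7a7, the exit carrier for cationic amino acids, -0.05 and Slc1a1, the glutamate carrier, -0.08. None of these 6 was called against all 8, and each was called against at least 1 set. Slc3a1, Slc6a19 and Slc1a1 were called in opposite directions, Slc7a9 and Slc6a18 higher against the R libraries alone, and Slc7a7 lower against the others alone. Slc7a8 was not called against all 8 (0.45, adjusted p = 0.0745) and reached 1.29 against the R libraries, the largest rise of any member there.

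The sodium, bicarbonate and water genes had no call against all 8 wildtype kidneys. Slc4a4, the bicarbonate exit carrier, had 0.17, Slc9a3, the sodium-proton exchanger NHE3, 0.18 and Aqp1 -0.10. Aqp1 had 496 to 629 CPM in the R libraries, 1046 to 1306 CPM in the others, and 550.6, 696.5 and 922.8 CPM as lowest, median and highest in PKD. The PKD kidneys were all below the wildtype kidneys without R and mostly above those with R. Its fold changes against the 2 sets were 0.37 and -0.66 (adjusted p = 0.00362 and 0.000106), those of Slc9a3 were 0.72 and -0.42, and those of Slc4a4 were 0.49 and -0.25, the last of them not called.

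Among the carriers for dicarboxylates, sulfate and oxalate, Slc13a1 rose, as given above, while Slc13a3, which takes up dicarboxylates from the blood side, was lower at -0.57 (SE 0.12, adjusted p = 0.000208). Slc13a3 had 428.8, 433.7, 391.8, 565.1 and 382.0 CPM in the R libraries, 690.0, 873.7 and 735.4 CPM in the others and 325.5, 362.9 and 456.5 CPM in PKD. All PKD kidneys were below the 3 kidneys without R, and they overlapped with the R libraries. Against the libraries without R its fold change was -1.03 (adjusted p = 2.48e-08) and against the R libraries -0.22 (adjusted p = 0.0512). Slc13a2, the citrate carrier of the brush border, had -0.09, Slc26a1, a sulfate exchanger, -0.07 and Slc26a6, an oxalate exchanger, 0.08, and none was called against all 8. Slc13a2 and Slc26a1 were called lower against the libraries without R (-0.49 and -0.42).

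Of the 6 carriers for organic anions, organic cations and ascorbate, 3 were higher and 2 lower. Slc17a4 was higher at 0.48, Slc47a1 at 0.36 and Slc23a3, an ascorbate transporter relative, at 0.23. Slc17a3, a urate and anion transporter, was lower at -0.26, beside Slc23a1. Slc17a1, its neighbour in the family, had 0.32 (adjusted p = 0.0538), and was called against the R libraries (0.77). Each of the 3 that were higher was called against the R libraries and not against the others, where they had 0.15, -0.16 and 0.04.

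Of the 4 endocytosis genes, 2 were higher against all 8 wildtype kidneys, 4 against the R libraries and 0 against the others, and 0 were lower in any of these. Lrp2 encodes megalin, the large receptor for filtered protein. It had 747.8, 625.2, 548.2, 578.6 and 468.0 CPM in the R libraries, 1111, 1418 and 1117 CPM in the others, and 781.1, 1242 and 1599 CPM as lowest, median and highest in PKD. All PKD kidneys were above all R libraries, and they spanned the range of the other wildtype kidneys. The log2 fold change was 0.58 (SE 0.15, adjusted p = 0.00246), 1.06 against the R libraries (adjusted p = 2.49e-08) and close to 0, at 0.02, against the libraries without R (adjusted p = 0.939). Dab2, the adaptor that links megalin to clathrin, was higher at 0.24 (adjusted p = 0.00678) and had 0.10 against the libraries without R. Cubn, which encodes cubilin, had 150.5, 209.3 and 351.5 CPM in wildtype and 177.9, 248.8 and 293.4 CPM in PKD, a fold change of 0.14 (95% interval -0.11 to 0.38). Amn, the membrane partner of cubilin, had 0.19 (adjusted p = 0.0671). Cubn and Amn were called against the R libraries (0.44 and 0.29) and not against the others (-0.26 and 0.03).

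By position along the tubule, the 6 members of the early segment were Slc5a2, Slc2a2, Slc5a12, Slc6a19, Slc4a4 and Slc7a8. They had a median log2 fold change of 0.14, with 1 lower and 1 higher. The 5 members of the late segment, which include Slc5a1, Slc5a8, Slc7a13, Slc3a1 and Slc1a1, had a median of -0.08, with 2 lower. Against the R libraries the medians were 0.42 for the early and 0.21 for the late members, and against the others -0.30 and -0.48. Of the early members 0 were lower and 5 higher against the R libraries, and 2 lower and 0 higher against the others. For the late members it was 1 lower and 2 higher, and then 4 lower and 0 higher.

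Other genes of the same cells were counted in the same way. Of 13 partners of the transporters and sodium pump genes, 5 were higher and 3 lower in PKD, with 8 higher and 3 lower against the R libraries and 2 higher and 7 lower against the others. Nherf2, a scaffold for NHE3, fell by 0.59 on the log2 scale and Pdzk1ip1, a small partner of the SGLT carriers, rose by 0.39, each called against both wildtype sets. Of 21 genes of the endocytic machinery, 4 were higher and 4 lower, from Ap2s1, a clathrin adaptor subunit, at -0.36 to Ctns, the lysosomal cystine exporter, at 0.47. For that list it was 5 higher and 2 lower against the R libraries, and 1 higher and 7 lower against the others. Ap2s1 was called against the R libraries alone, and so was Ctns. Of 12 brush border enzymes and cytoskeletal genes, 2 were higher and 4 lower, with 6 higher and 3 lower against the R libraries and 1 higher and 7 lower against the others. Of all genes tested, 24.1% were higher and 25% lower against all wildtype kidneys. Against the R libraries it was 30.7% and 28.9%, and against the others 20.9% and 19.9%. The same shares stand beside the counts by role and segment above.

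Dpep1, a dipeptidase of the brush border, stood out in that list. Its log2 fold change was -1.21 (SE 0.09, adjusted p = 4.28e-12), all PKD kidneys lay below all wildtype kidneys, which 2.07% of all genes did, and it was -1.18 and -1.27 against the 2 sets. Anpep, the aminopeptidase N, had 0.52 against all 8 and 0.01 against the libraries without R. Of 6 transcription factors of the proximal tubule, 1 was called, Ppara, at -0.31 (adjusted p = 0.00645), and it was not called against the libraries without R (-0.29, adjusted p = 0.0795).

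Markers of other cell types moved in the same kidneys. Of 9 injured tubule markers, 8 were higher in PKD, as were 7 of 7 fibroblast and 6 of 6 macrophage markers. Lower were 5 of 5 distal convoluted tubule, 5 of 6 intercalated and 5 of 5 podocyte markers. Over all genes, 24.1% were higher and 25% lower. Other lists were mixed or partly called: 2 of 5 thick ascending limb markers were lower. Of 6 principal cell markers 1 was higher and 1 lower, and of 6 endothelial markers 3 were higher and 2 lower. Of 3 lymphocyte markers tested 2 were higher and 1 lower, and of 10 liver markers tested 6 were higher. The summed liver level, however, had a median of 241 CPM in wildtype and 238 CPM in PKD. Its highest value, 5356 CPM, was that of PKD replicate 10, the library described above. Against both wildtype sets 5 fibroblast markers were higher, and 4 distal convoluted tubule, 5 intercalated and 1 podocyte markers were lower. Over all genes 11.5% were higher and 8.06% lower against both. The podocyte marker Synpo was called higher against the libraries without R (0.27, adjusted p = 0.0420). The summed injured tubule level was 409 to 665 CPM in wildtype, 1424 to 2872 CPM in PKD and 1190 to 3725 CPM in PKD + Salsalate, with no overlap between wildtype and either PKD group. The fibroblast sum was 353 to 521, 819 to 1361 and 763 to 1708 CPM in the same order. Havcr1 rose by 5.90 on the log2 scale and was at 0.45 to 1.78 CPM in wildtype. Their part in the changes of the 42 genes was not tested. The 8 injured tubule markers and the 6 macrophage markers were called higher against each wildtype set. Of the 42 genes, only Slc13a1 was called higher against each set, and only Slc7a13 and Slc23a1 lower.

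PKD + Salsalate against PKD asks what the drug does within the cystic kidney. It shares the 12 PKD kidneys with the comparison above, so values of both are given side by side and not related to each other by a statistic. Of the 42 genes, edgeR called 2, both higher, and 0 lower, and DESeq2 and limma-voom also called 0 lower. Over all genes 0.58% were called, 0.251% higher and 0.329% lower. The 2 genes are Slc17a4 and Slc23a3. The paper already names both as upregulated by salsalate in these data, so the count of 2 is not an independent result beside the share of all genes. At an unadjusted p under 0.05 there were 10 of the 42 genes, against 10.3% of all genes. The ranges of the 2 groups overlapped for all 42, as they did for all genes but 0.00716% that lay wholly below and 0.0215% that lay wholly above.

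Slc17a4 had 3.82, 5.81 and 8.36 CPM as lowest, median and highest in PKD and 6.23, 8.97 and 12.6 CPM in PKD + Salsalate. All 12 treated kidneys were above the median of the untreated ones, with some overlap of the ranges. On the log2 scale the difference was 0.70 (SE 0.13, 95% interval 0.43 to 0.96, adjusted p = 0.00711). Its wildtype values were 1.80, 4.06, 4.14, 4.31 and 2.81 CPM with R and 5.36, 5.20 and 4.97 CPM without.

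Slc23a3 had 6.90, 8.12 and 10.0 CPM in PKD and 8.95, 10.8 and 12.0 CPM in PKD + Salsalate. Again all 12 treated kidneys exceeded the untreated median and the ranges overlapped. The difference was 0.37 on the log2 scale (SE 0.08, 95% interval 0.22 to 0.53, adjusted p = 0.0154). Both genes are among the 5 members with the lowest levels per length in wildtype.

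Slc7a12 had the largest difference of all members and missed the threshold. It had 1.49, 3.36 and 7.25 CPM in PKD and 4.72, 5.63 and 11.1 CPM in PKD + Salsalate, with 12 of 12 treated kidneys above the untreated median, a log2 fold change of 0.90 (SE 0.25) and an adjusted p of 0.0875. Slc5a2 likewise missed it: 435.7, 557.7 and 602.4 CPM in PKD stood against 530.9, 651.7 and 768.3 CPM in PKD + Salsalate, with 11 of 12 treated kidneys above the untreated median. Its log2 fold change was 0.27 (SE 0.07, adjusted p = 0.0600). Both passed with other tests. For Slc5a2 the adjusted p was 0.0139 with DESeq2, 0.0465 with limma-voom and 0.0312 in a fit of the 2 PKD groups alone, and for Slc7a12 it was 0.0346, 0.0421 and 0.0315.

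**Figure D5:**
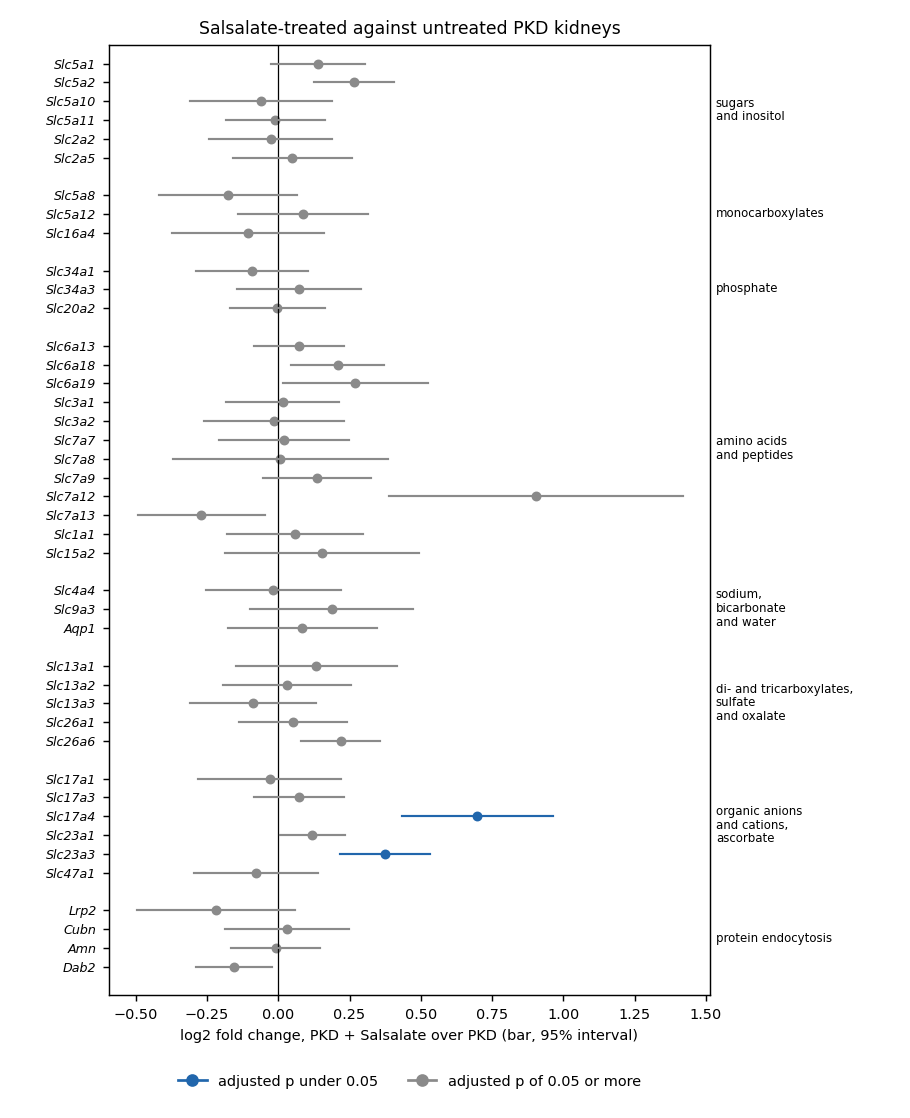
Log2 fold change of PKD + Salsalate over PKD for each of the 42 genes, grouped by role, with its 95% interval. Slc17a4 (0.70) and Slc23a3 (0.37), in blue, passed an adjusted p of 0.05. Other intervals exclude 0 without an adjusted call, among them that of Slc7a12 (0.39 to 1.42) above 0 and that of Slc7a13 below 0. In total 10 of the 42 genes had an unadjusted p under 0.05.

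The other 38 members stayed between -0.27 and 0.27 on the log2 scale. The lower end was Slc7a13, at -0.27 (95% interval -0.49 to -0.05, adjusted p = 0.327), with 383.5, 479.6 and 687.3 CPM in PKD and 234.7, 406.9 and 495.3 CPM in PKD + Salsalate. Lrp2 had -0.22 (-0.50 to 0.06), with 781.1, 1242 and 1599 CPM in PKD and 966.8, 1017 and 1414 CPM in PKD + Salsalate, and 11 of 12 treated kidneys below the untreated median. Slc34a1 had -0.09 (-0.29 to 0.10), Aqp1 0.08 (-0.18 to 0.35) and Cubn 0.03 (-0.19 to 0.25). Slc26a6 had 0.22, Slc6a18 0.21, Slc6a19 0.27, Slc23a1 0.12 and Dab2 -0.16, each at an unadjusted p under 0.05 and with no adjusted call.

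By role, edgeR with the 3 groups together made no call among the sugar, monocarboxylate, phosphate, amino acid, sodium and water, dicarboxylate or endocytosis genes, while DESeq2, limma-voom and the fit of the 2 groups alone called Slc5a2 and Slc7a12, as given above. Nor was any of the 13 transporter partners, 21 endocytic genes, 12 brush border genes or 6 transcription factors called, with 4, 1, 1 and 0 of them at an unadjusted p under 0.05, and the median log2 fold changes of these 4 lists lay between -0.07 and 0.06. The injured tubule list had 0 of 9 genes called, 4 of 9 at an unadjusted p under 0.05, a median of -0.29 and summed levels that overlapped between the 2 groups. Over all genes 10.3% had an unadjusted p under 0.05. Of 10 liver markers tested, 1 was called lower and 8 had an unadjusted p under 0.05. The summed liver level was 5356 CPM in PKD replicate 10 and 189 to 320 CPM in the treated kidneys. Without PKD replicate 10 and PKD + Salsalate replicate 11, Slc17a4 and Slc23a3 remained called and Slc5a2 was added.

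PKD + Salsalate against wildtype shows where the treated kidneys stood. Against all 8 wildtype kidneys 14 of the 42 genes were called, 5 lower and 9 higher, where 44.9% of all genes were called, 23.2% lower and 21.8% higher. At an unadjusted p under 0.05 there were 23 of the 42, against 52.1% of all genes. Against the R libraries 3 were lower and 26 higher, where 28.4% and 29.7% of all genes were. Against the others 18 were lower and 5 higher, where 16.5% and 18.3% were. The sign differed between the sets for 24 of the 42 genes and for 44.4% of all genes. Called against both sets were 3 lower genes, Slc7a13, Slc13a3 and Slc5a8, and 5 higher ones, Slc7a12, Slc17a4, Slc13a1, Slc23a3 and Slc26a6. Over all genes 6.09% were lower and 9.95% higher against both.

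In 3 genes the treated and wildtype kidneys did not overlap at all. Slc7a13 was lower in all 12 treated kidneys, at -1.07 (SE 0.12, adjusted p = 1.40e-08), while 1.93% of all genes lay wholly below. Slc7a12, at 1.89 (SE 0.32, adjusted p = 1.41e-05), and Slc17a4, at 1.18 (SE 0.15, adjusted p = 2.06e-07), were higher in all 12, while 4.46% of all genes lay wholly above. Slc7a13 was -1.24 against the R libraries and -0.74 against the others, Slc7a12 2.00 and 1.75, and Slc17a4 1.44 and 0.86.

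Slc13a1 was at 0.94 (SE 0.16, adjusted p = 1.49e-05), with 221.6, 276.4 and 457.4 CPM as lowest, median and highest in the treated kidneys. Slc13a3 was at -0.66 (SE 0.12, adjusted p = 3.96e-05), with 266.2, 353.1 and 437.5 CPM. Slc5a8 was at -0.58 (SE 0.13, adjusted p = 0.000636), with 63.2, 74.6 and 122.1 CPM against 78.9, 114.3 and 204.4 CPM in wildtype, and like Slc13a3 it overlapped with wildtype. Slc5a2 was -0.03 in the treated kidneys (95% interval -0.18 to 0.13). Against the R libraries it was 0.11 and against the others -0.23, called against neither set. In untreated PKD it was -0.29 against all 8, called against the libraries without R (-0.50) and not against those with R (-0.16). Lrp2 had 0.36 (adjusted p = 0.0548) against all 8, 0.84 against the R libraries and -0.20 against the others.

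Within the PKD kidneys the 42 genes varied little more than other genes. The median SD of log2 CPM among the 12 PKD kidneys was 0.21 for the 42 genes and 0.19 for all genes, and among the 12 treated kidneys 0.18 and 0.16. In wildtype, which holds both library sets, it was 0.42 against 0.26. Slc7a12 varied most in PKD (SD 0.67) and Slc15a2 most in PKD + Salsalate (SD 0.49), where replicate 5 reached 139.5 CPM against a group median of 61.1.

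The extreme values were not spread evenly over the kidneys. Wildtype replicates 1 and 5, both with R, had the lowest value of all 32 kidneys for 10 genes each, and wildtype replicate 7, without R, had the highest for 21 of the 42. PKD replicate 4 had the lowest value for 5 genes, Slc5a2, Slc2a5, Slc6a19, Slc7a7 and Slc7a9, and was the PKD library with the lowest share of alignments on genes (74.2%). PKD + Salsalate replicate 11 had the lowest value for 4 genes, Slc5a8, Slc7a13, Slc13a3 and Slc17a3, and the highest injured tubule sum (3725 CPM). PKD replicate 2 had the highest value for 5 genes, Slc5a12, Slc7a8, Slc4a4, Lrp2 and Dab2. Whether the share of alignments or the injury markers play a part in these extremes was not tested. That share was used as a covariate only in a fit of the groups, given below.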

How the data were processed

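RNA-seq libraries were made with the NEBNext Ultra II Directional kit. Per the study's methods and the submitters' processing notes, reads were trimmed with cutadapt 2.10, aligned with STAR 2.7.5a to GRCm39 and counted per Ensembl gene with HTSeq 0.12.4 with the stranded setting. The authors deposited raw counts, 1 column per kidney. The 5 summary lines without a gene were left out.

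Counts were analysed with edgeR 4.0.16 in R 4.3.3: genes with log2 CPM above 1 in at least 25% of the 32 kidneys, TMM scaling, a quasi-likelihood fit of the 3 groups together, 2-sided tests, Benjamini-Hochberg adjustment over all genes tested and a threshold of 0.05. Fold changes are log2 with standard errors (SE), and CPM are TMM-scaled. RPKM used the exon union of GENCODE M39 on GRCm39, which matched 52610 of 53700 genes. The fits were tested on simulated data. Alternatives used DESeq2 1.42.0, limma-voom (limma 3.58.1), other scalings, filters and libraries.

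All members were open to naming. Full values were given for the 3 largest falls and rises past the threshold in each comparison, for Lrp2, Cubn, Slc5a2, Slc34a1 and Aqp1, and for the largest fall and rise of each pathway list. Members and lists were chosen with earlier results of these data known. Each kidney was taken as 1 mouse. Precision is limited by 8 and 12 kidneys per group and, for genes under 10 CPM, by counting error. A search of promoter sequences is not reported here.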

Additional observations from a re-analysis of the deposited data

Results flagged for a closer look

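Among the 42 genes, 2 had a wildtype kidney that stood apart from the other 7 by Dixon's gap ratio. Chance flags about 1 in 20 such groups. Slc23a1 was 259.3 CPM in wildtype replicate 5, with the nearest kidney at 299.6 CPM. Slc23a3 was 9.96 CPM in wildtype replicate 7, with the nearest kidney at 7.51 CPM.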

How the results depend on the processing

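Counts of members called moved with the wildtype libraries more than with any other choice tried. In PKD against wildtype, 9 lower and 11 higher became 2 and 27 with only R libraries, 21 and 1 without them, and 14 and 6 with the percent of alignments on genes as a covariate; a fit of the 2 groups alone gave 7 higher. Slc5a10 turned to 0.0058 with R libraries only, and without them Slc6a13 turned to -0.019, Slc3a2 to -0.12 and Slc47a1 to -0.16. With salsalate against PKD, 2 higher became 4 with DESeq2, limma-voom, the 2 groups alone or the covariate, and 5 with only wildtype libraries without R, which add Slc6a18. In PKD + Salsalate against wildtype, 5 lower and 9 higher became 3 and 26 with R libraries only and 18 and 5 without; higher was 14 with upper-quartile factors and 15 with limma-voom, and lower was 11 with the covariate. Leaving out 1 kidney at a time gave 6 to 9 lower and 8 to 16 higher in PKD against wildtype, 0 lower and 2 to 3 higher for salsalate against PKD, and 3 to 6 lower and 9 to 19 higher for PKD + Salsalate against wildtype; there, higher was 15, 19 and 16 without wildtype replicate 6, 7 and 8. In PKD against wildtype the calls of Slc3a2, Slc6a13, Slc23a3, Slc5a10, Slc15a2 and Slc5a8 were lost in 12, 8, 7, 5, 3 and 1 of these 32 fits, with a highest adjusted p of 0.105, 0.0988, 0.0789, 0.132, 0.0531 and 0.0672, reached without wildtype replicate 4, 3, 3, 7, 8 and 7. Slc5a10 and Slc2a5 lost their calls in PKD + Salsalate against wildtype without wildtype replicate 7 (adjusted p = 0.0593 and 0.0584), and Slc5a2 gained one against PKD without PKD + Salsalate replicate 11. The causes were not tested. The covariate and the joint removal of PKD replicate 10 and PKD + Salsalate replicate 11 were chosen after seeing the data. Median-of-ratios scaling and filterByExpr changed no call of the 39 single-gene results.

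Same-numbered kidneys did not deviate together: the median correlation was -0.03 for wildtype with PKD, 0.03 for wildtype with PKD + Salsalate and -0.12 for the PKD groups. Replicate numbers were thus not taken as a pairing. With the number as a replicate block, lower calls in PKD + Salsalate against wildtype were 3, and in PKD against wildtype Slc5a10 (adjusted p = 0.128), Slc6a13, Slc3a2 and Dab2 were no longer called, nor were Slc5a10 and Slc2a5 in PKD + Salsalate against wildtype. No call of salsalate against PKD changed.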
